A study of Homo sapiens with 19 samples.

Results

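The genes described here encode PU.1 (SPI1) and the C/EBP proteins (CEBPA, CEBPB, CEBPD, CEBPE and CEBPG), the transcription factors around which myeloid blood cells are built. They were taken by name, 6 of the 20033 protein-coding genes of GENCODE release 44, and each was read as the base pairs (bp) that histone-mark peaks covered in a window of the gene body and 50 kb either side on hg38. PU.1 is an ETS-family factor that opens myeloid enhancers, and the C/EBP proteins are basic leucine-zipper factors that bind DNA as dimers, often beside PU.1. C/EBPα starts the granulocyte and monocyte programme, C/EBPβ and C/EBPδ are induced by cytokines and inflammation, C/EBPε acts late in granulocyte maturation, and C/EBPγ lacks a classical activation domain and pairs with the other members. In acute myeloid leukaemia this programme is often held back, and the repressor GFI1 brings the CoREST complex, with the demethylase LSD1 and histone deacetylases, to myeloid genes.

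The data are CUT&RUN peak lists from MOLM-13, an established human acute myeloid leukaemia line. Cells were given Corin, which blocks LSD1 and the deacetylases within CoREST at once, or its vehicle DMSO, for 24 h, and the labels give 0.1 µM for both. All libraries analysed come from this 1 line, with no other genotype. H3K27ac marks active promoters and enhancers, H3K4me2 marks promoters and enhancers and is removed by LSD1, and H3K4me3 lies mostly at promoters. Each mark had 2 libraries per treatment, 12 in all. The comparison asks where these marks lie around the 6 genes once CoREST is inhibited.

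Facts of the whole series frame each value below. The H3K27ac lists held 30029 to 34424 peaks after Corin and 17599 to 19995 after DMSO, the H3K4me2 lists 40042 to 41152 and 30896 to 32299, and the H3K4me3 lists 11757 to 11883 and 11104 to 11343. The lists hold no reads, and of depth only the labels' floor of 5000000 reads is known. The number of peaks therefore moved with the treatment in the same direction as most coverage values, and its part in them was not tested. In a bulk library, more cells with a mark and more of the mark per cell cannot be told apart. H3K4me3 lay within 1 kb of a start site in both DMSO libraries at 6 of 9 markers of the line (CD33, PTPRC, FLT3, LYZ, HOXA9 and MEIS1, but not MPO, CSF1R or KIT) and at 0 of 14 markers of erythroid, lymphoid and non-blood cells.

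The 6 genes differed widely in how much of their surroundings was marked. In DMSO cells H3K27ac covered a mean of 15.3% of the CEBPA window (13% and 17.5%, n = 2) and 12% of the SPI1 window (10.4% and 13.6%), which overlapped. CEBPG (2.55%), CEBPD (2.49%), CEBPB (2.05%) and CEBPE (1.04%) followed at much lower levels. The CEBPG and CEBPD libraries overlapped, whereas CEBPB lay below CEBPG, and CEBPE lay below all others. After Corin the means were 26.3% for CEBPA, 17% for SPI1, 5.83% for CEBPG, 4.3% for CEBPB, 3.48% for CEBPD and 2.87% for CEBPE, and no neighbours in that order overlapped. The windows of CEBPA and CEBPG share 28850 bp, so those values are not independent.

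**Figure D1:**
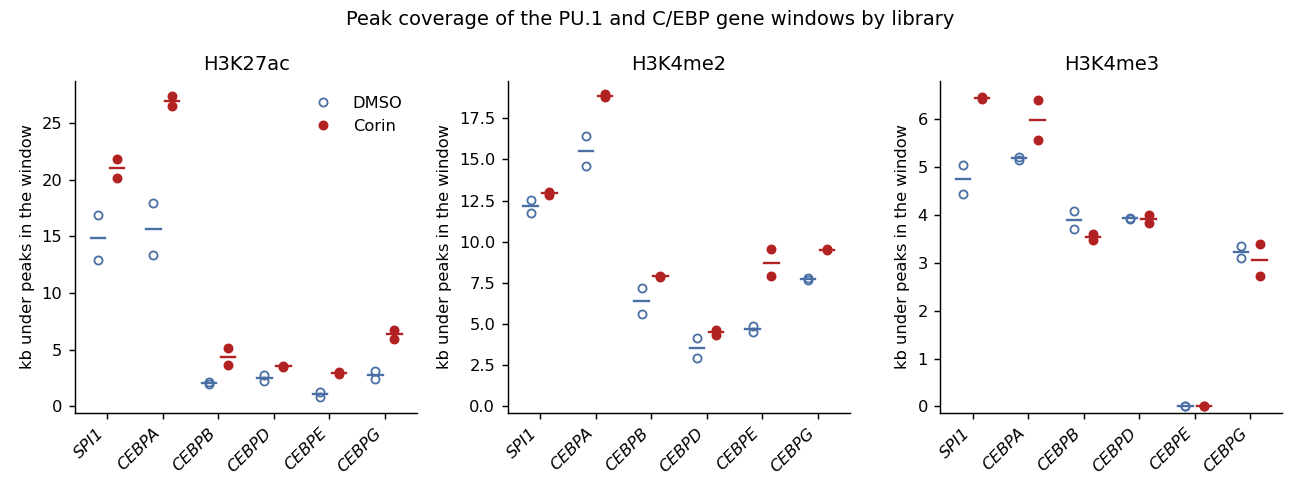
Kilobases under peaks in each gene window (vertical axis) for the 3 marks, with 1 point per library and a bar at the mean of the 2 libraries. H3K27ac and H3K4me2 points after Corin lie above the DMSO points at all 6 genes, while H3K4me3 lies above at SPI1 and CEBPA and shows no peak at CEBPE.

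H3K27ac coverage was higher in both Corin libraries than in both DMSO libraries at 6 of 6 genes, an ordering that 79.5% of the 12767 tested protein-coding windows also showed. With limma (Benjamini-Hochberg adjustment over all tested windows, threshold 0.05), coverage rose at CEBPA, CEBPB, CEBPE and CEBPG, 4 of 6, and 38.4% of all windows rose. The members' median log2 difference was 0.84 and that of all windows 0.77, so as a group they changed about as much as the genome did. H3K4me2 was also above in 6 of 6 windows (58.8% of 16464 windows), but 1 of 6, CEBPE, passed the test, beside 18.4% of all windows. The members' median was 0.29 and that of all windows 0.22. With the replicate number as a block the H3K4me2 count over all windows fell from 3033 higher and 4 lower to 1890 higher and 2 lower. H3K4me3 was above at SPI1 and CEBPA (32.3% of 13963 windows), below at CEBPB (6.93%) and overlapped at CEBPD and CEBPG. For H3K4me3 limma called 0% of windows, 1327 having an unadjusted p under 0.05.

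**Figure D2:**
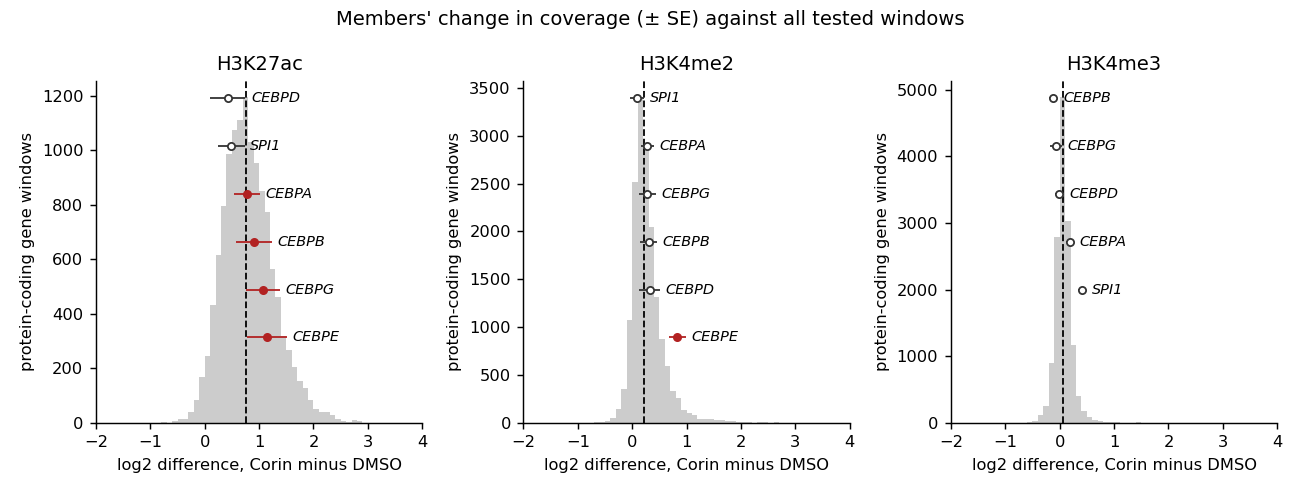
Log2 difference in covered bp, Corin minus DMSO, for each member (point, with its SE) over the distribution of all tested protein-coding windows (grey, values outside the axis placed in the end bins), per mark; the dashed line is the median of all windows and filled red points passed limma's adjusted threshold. For H3K27ac the members straddle the median of 0.77, while CEBPE for H3K4me2 (0.83) and SPI1 for H3K4me3 (0.41) stand to the right.

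These calls rest on few libraries. The 4 H3K27ac calls became 0 without Corin replicate 1, 0 without Corin replicate 2 and 1 without DMSO replicate 1, and they became 0 when each list was reduced to its top-scoring peaks at the number of the shortest list or when each library was centred on its median window. At matched list length the log2 differences were still positive, 0.67 at CEBPA (adjusted p = 0.121), 0.68 at CEBPB (0.279), 0.94 at CEBPE (0.159) and 0.77 at CEBPG (0.208), by limma. Centring left SPI1 (-0.30), CEBPD (-0.38) and CEBPA (-0.02) with a negative H3K27ac difference, that is, below the shift of the median window. An exact permutation test of 2 libraries against 2 cannot go below 0.333, so that test cannot pass 0.05 for a single window and mark.

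SPI1 (PU.1; chr11:47354860-47378547, minus strand) stood furthest from other genes in H3K4me3, over its own start site. The peak there covered 4132 and 4295 bp in the Corin libraries and 2841 and 3081 bp in the DMSO libraries. The groups did not overlap, and the mean was 1.42-fold higher after Corin, a difference of 1252.5 bp that ranked 14 among the 9131 genes with an H3K4me3 region over a start site (median difference 52.5 bp). Of those genes, 24.6% had both Corin libraries above both DMSO libraries. The rank is by bp and not by fold, and the DMSO level of SPI1 there already ranked 657. The upstream edge of the SPI1 peak lay at -303 bp in 3 libraries and at -278 bp in Corin replicate 2. The downstream edge lay at 3828 and 4016 bp after Corin but at 2537 and 2777 bp after DMSO, so the added length lay inside the gene. Over the whole window H3K4me3 covered 6474 and 6421 bp after Corin against 4445 and 5046 bp after DMSO. The log2 difference was 0.41 (SE 0.08), with an adjusted p of 0.216 from limma (unadjusted 0.00196). It ranked 121 of 13963 by p and 348 by size.

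The other marks at SPI1 lay nearer to the rest of the genome. H3K27ac covered 21839 and 20177 bp after Corin compared with 12896 and 16863 bp in DMSO cells, a log2 difference of 0.49 (SE 0.25, limma adjusted p = 0.109) that is 0.27 below the median window. Its widest region away from a start site lay upstream, centred at -13.5 kb, and covered 8130 and 8381 bp after Corin against 6272 and 7719 bp after DMSO. SPI1 is known to be driven in myeloid cells by an upstream regulatory element in this direction. This stretch held 3 H3K4me2 regions. The widest, centred at -15.8 kb, covered 2892 and 2883 bp after Corin against 2881 and 2984 bp in DMSO cells, with overlapping groups. The one at -12.7 kb covered 753 and 820 bp against 392 and 574 bp, with both Corin libraries above, and the one at -9.61 kb was present in Corin replicate 2 alone (234 bp). H3K4me2 over the start site was likewise close between treatments, at 5326, 5330, 4950 and 5321 bp in Corin replicates 1 and 2 and DMSO replicates 1 and 2, and over the window the log2 difference was 0.09 (SE 0.13, limma adjusted p = 0.681). In the SPI1 body, H3K27ac peaks present in both Corin and neither DMSO library, called gained below, lay at 14.9 kb (203 and 473 bp) and at 8.54 kb (305 and 459 bp) from the start site, and neither site had H3K4me2.

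**Figure D3:**
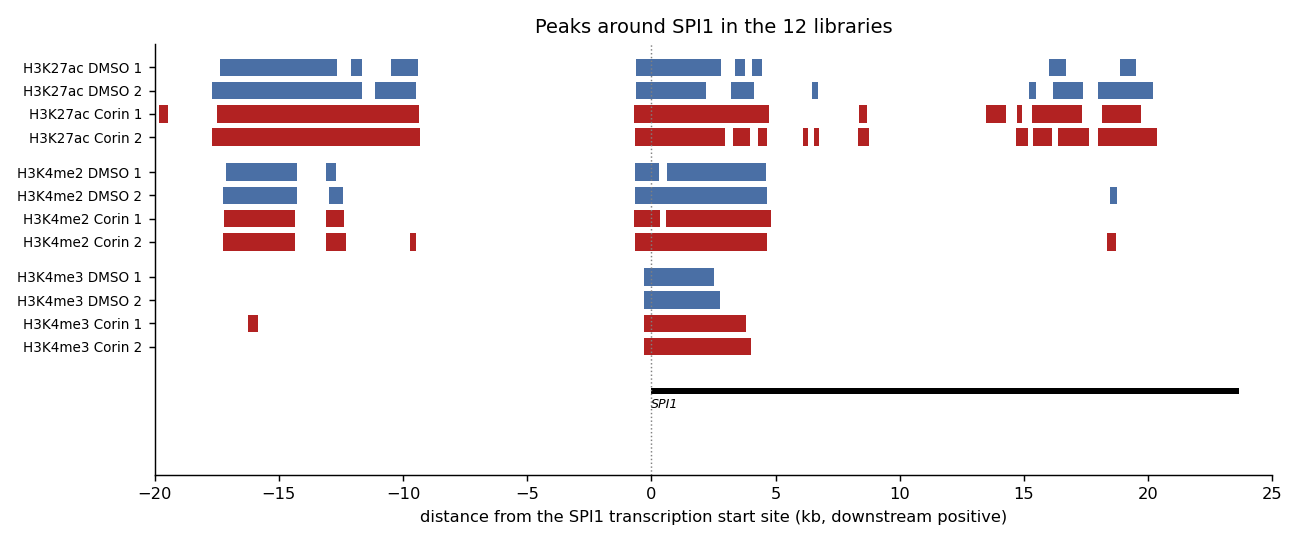
Peaks of the 12 libraries (1 row each, blue DMSO, red Corin) around SPI1, by distance in kb from its start site with downstream positive; the black bar is the gene. The H3K4me3 peak ends at 3828 and 4016 bp after Corin but at 2537 and 2777 bp after DMSO, while the H3K4me2 peaks over the same stretch end alike.

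CEBPA (chr19:33299934-33302534, minus strand) had the most H3K27ac and H3K4me2 coverage of the 6, and most of its H3K27ac difference lay away from start sites. H3K27ac covered 27396 and 26532 bp after Corin compared with 13362 and 17977 bp in DMSO cells. The groups were well apart, with a log2 difference of 0.78 (SE 0.24, limma adjusted p = 0.0191), and the difference from the median window was 0.01. Over the start site itself H3K27ac covered 1707 and 1642 bp against 271 and 1661 bp and overlapped. Of the rise of 11294.5 bp in the mean, 9426 bp lay in 17 regions away from any start site. The 3 gained regions, at 39 kb (553 and 500 bp), 23.7 kb (311 and 211 bp) and 22.4 kb (859 and 418 bp) from the start site, were among these, and none had H3K4me2. H3K4me2 over the window covered 18955 and 18786 bp after Corin against 14608 and 16446 bp after DMSO (log2 difference 0.28, SE 0.12, limma adjusted p = 0.0893). Leaving out DMSO replicate 2 gave a call (0.36, limma adjusted p = 0.0246), while the other 3 libraries left out in turn gave an adjusted p of 0.268 to 0.533, and after centring the difference was 0.00. Near the gene itself H3K4me2 lay in a pair of regions that together averaged 5505 bp after Corin and 5448.5 bp in DMSO cells. The region centred at 2.45 kb covered 2948 and 2935 bp against 3010 and 3231 bp, with both Corin libraries below, and that at -1.58 kb covered 2860 and 2267 bp against 2389 and 2267 bp, with overlapping groups.

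At 35.5 and 42 kb downstream both marks covered more in each Corin library, whereas H3K4me2 at 48.6 kb overlapped between treatments (1165 and 1864 bp against 824 and 1339 bp). At 35.5 kb H3K4me2 covered 3195 and 3340 bp after Corin against 1906 and 2539 bp after DMSO, inside an H3K27ac region of 4936 and 5253 bp against 3482 and 4382 bp. This was also where the 1 gained H3K4me3 region of the 6 windows lay, 376 and 303 bp after Corin and none after DMSO, on ground that H3K27ac and H3K4me2 covered in all 4 libraries. At 42 kb from the start site, where a myeloid enhancer of CEBPA is known and named for that distance, H3K4me2 covered 3292 and 3411 bp after Corin compared with 2457 and 3022 bp in DMSO cells, and the H3K27ac region there (centre 41.6 kb) 3502 and 3658 bp against 2688 and 2713 bp. H3K4me3 over the CEBPA start site covered 5605 and 5273 bp after Corin against 5158 and 4970 bp in DMSO cells, and over the window its log2 difference was 0.19 (SE 0.08, limma adjusted p = 0.562).

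The middle 300 bases of the H3K4me2 region at 42 kb (hg38 chr19:33260335-33260634, read on the gene's minus strand) are shown. This was the widest H3K4me2 region away from a start site in the CEBPA window. It is one of several where both marks were wider in each Corin library, and it lies at the distance of the known enhancer. Capitals mark the letters TTCCTC, the reverse complement of the PU.1 core GAGGAA. Of the middle 300 bases of H3K4me2 regions away from a start site, 35.2% hold GAGGAA on either strand. No match was found here to the C/EBP letters TTNNGCAA (19.5% of those regions), the RUNX letters TGTGGT (25.7%) or the GFI1 letters AATCAC (13.4%), all searched on both strands.
CEBPA far downstream H3K4me2 region: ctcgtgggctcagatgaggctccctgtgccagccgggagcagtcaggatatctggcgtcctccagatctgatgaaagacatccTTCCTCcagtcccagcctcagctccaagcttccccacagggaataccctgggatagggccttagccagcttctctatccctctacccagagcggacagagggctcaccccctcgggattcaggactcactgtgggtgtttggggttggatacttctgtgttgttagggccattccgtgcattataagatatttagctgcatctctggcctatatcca

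**Figure D4:**
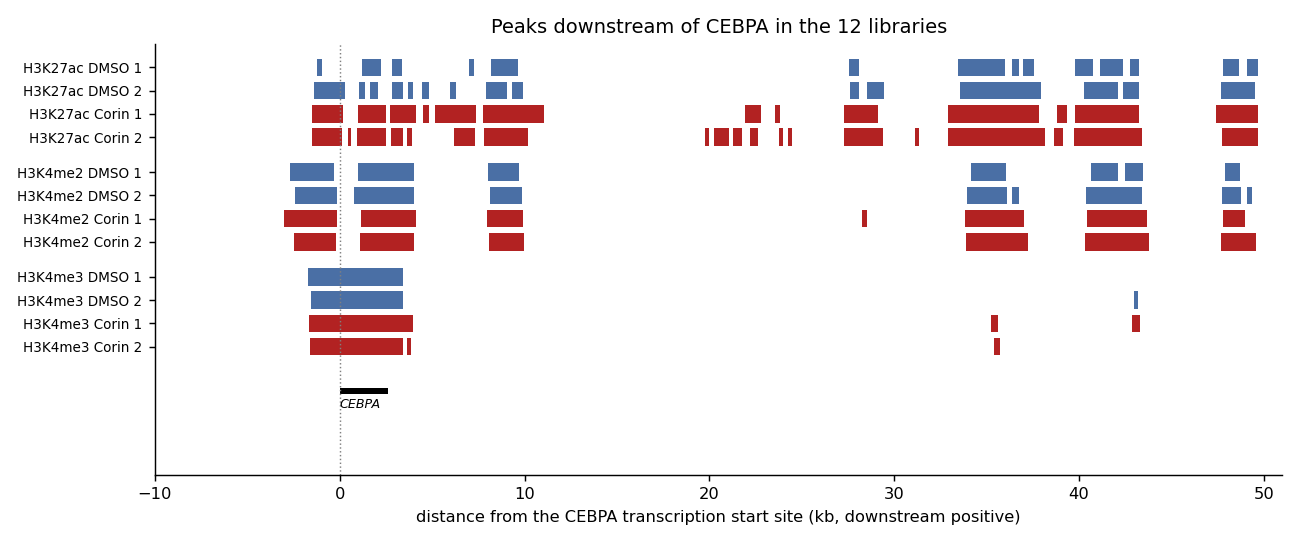
Peaks of the 12 libraries (1 row each, blue DMSO, red Corin) from CEBPA to the far end of its downstream flank, by distance in kb from its start site; the black bar is the gene. Red H3K27ac rows fill sites between 20 and 25 kb and at 39 kb that are empty in the DMSO rows, and the 2 red H3K4me3 peaks at 35.5 kb have no DMSO counterpart.

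CEBPE (chr14:23117036-23120256, minus strand), the factor of late granulocyte maturation, was the member with the largest H3K4me2 difference. H3K4me2 in its window covered 9551 and 7918 bp after Corin compared with 4502 and 4863 bp in DMSO cells. The groups were far apart, and the rise had a log2 difference of 0.83 (SE 0.16, limma adjusted p = 0.000165), rank 742 of 16464 by size and 0.61 above the median window. It was still called after centring each library on its median window (0.56, limma adjusted p = 0.00935) and with lists of matched length (0.75, limma adjusted p = 0.0471), though not in the gene body alone (0.66, limma adjusted p = 0.12). Over the start site the H3K4me2 region covered 3919 and 3753 bp after Corin against 2341 and 2041 bp after DMSO. That 1.75-fold difference, 1645 bp, ranked 49 by bp among 9408 genes with an H3K4me2 region over a start site. Of those genes, 33% had both Corin libraries above. The upstream edge lay at -1630, -1604, -1622 and -1217 bp in Corin replicates 1 and 2 and DMSO replicates 1 and 2, so here too most of the added length was in the gene.

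A second CEBPE element lay downstream of the gene, outside any protein-coding gene. H3K4me2 there, centred at 5.09 kb, covered 3383 and 2196 bp after Corin against 1378 and 1316 bp in DMSO cells. Within it, at 5.56 kb, an H3K27ac region of 294 and 340 bp was gained, where H3K4me2 was already present in both DMSO libraries (157 and 341 bp). The H3K4me2 window total also took in the start site of SLC7A8, an amino acid transporter gene, at -35.3 kb, with 1861 and 1579 bp after Corin against 783 and 1220 bp after DMSO. H3K27ac over the CEBPE start site covered 1967 and 2288 bp after Corin compared with 1288 and 863 bp in DMSO cells, a 1.98-fold higher mean, and 48.3% of 6625 genes with such a region had both Corin libraries above. Over the window H3K27ac covered 3030 and 2888 bp against 1288 and 863 bp (log2 difference 1.15, SE 0.37, limma adjusted p = 0.0223). No H3K4me3 peak lay in the CEBPE window in any of the 4 libraries, so that mark and the 3-mark test below gave no value for it.

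The 250 bases before the CEBPE start (hg38 chr14:23119256-23119505, minus strand, from RefSeq) and the middle 300 bases of the gained downstream H3K27ac region (chr14:23113549-23113848, read on the same strand) are shown as the pair of sites where the marks were wider or gained. In the promoter the capitals mark GAGGAA, the PU.1 core, which 23.6% of the 35116 promoters of this length hold. The promoter had no match to the C/EBP (9.05% of promoters), RUNX (11%) or GFI1 (9.02%) letters, and the downstream region had none of the 4 motifs, which 31.3% (PU.1), 15.7% (C/EBP), 23.1% (RUNX) and 13.5% (GFI1) of H3K27ac regions away from a start site hold.
CEBPE promoter: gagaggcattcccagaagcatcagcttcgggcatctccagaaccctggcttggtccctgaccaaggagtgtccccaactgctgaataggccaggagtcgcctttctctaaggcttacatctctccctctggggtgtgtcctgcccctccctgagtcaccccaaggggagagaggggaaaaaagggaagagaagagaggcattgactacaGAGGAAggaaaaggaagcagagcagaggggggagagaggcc
CEBPE downstream H3K27ac region: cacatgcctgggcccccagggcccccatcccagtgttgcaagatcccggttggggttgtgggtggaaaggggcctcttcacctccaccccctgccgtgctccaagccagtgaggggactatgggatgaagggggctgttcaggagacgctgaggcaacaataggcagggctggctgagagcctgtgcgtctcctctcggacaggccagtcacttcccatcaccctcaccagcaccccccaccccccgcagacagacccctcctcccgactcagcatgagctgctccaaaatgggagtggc

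**Figure D5:**
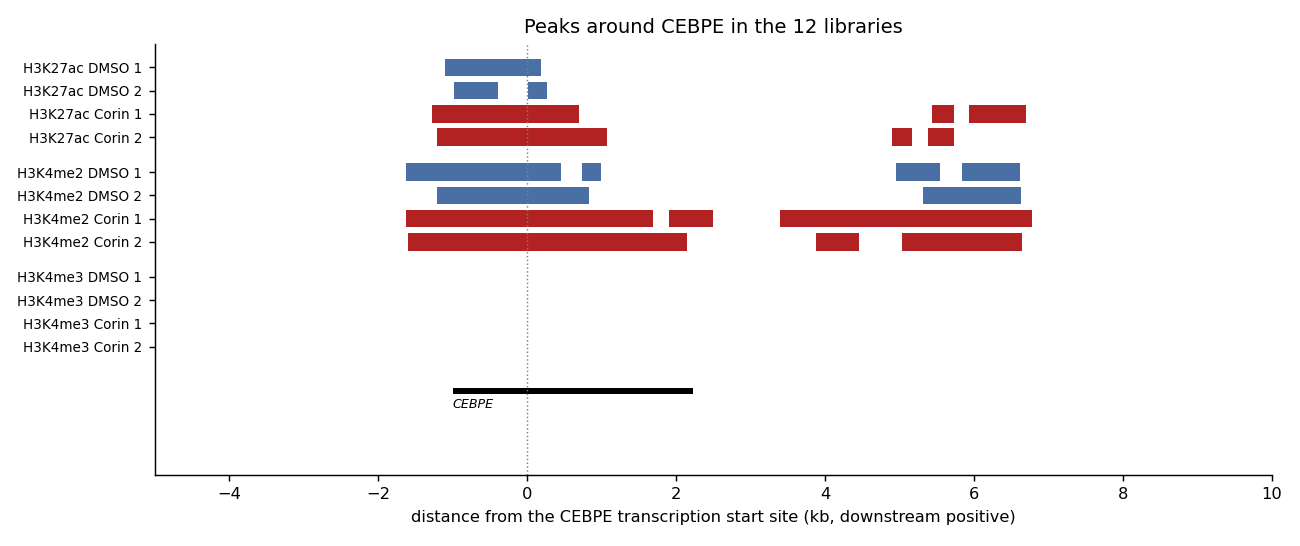
Peaks of the 12 libraries (1 row each, blue DMSO, red Corin) around CEBPE, by distance in kb from its start site; the black bar is the gene. H3K4me2 reaches further into the gene and over the downstream element in the Corin rows, H3K27ac near 5.56 kb is present in the Corin rows alone, and the H3K4me3 rows are empty.

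CEBPG (chr19:33373685-33382686, plus strand), the dimer partner without a classical activation domain, had the second largest H3K27ac rise of the 6 on the log2 scale, after CEBPE. Its window covered 6746 and 5953 bp after Corin against 2401 and 3149 bp in DMSO cells (log2 difference 1.07, SE 0.31, limma adjusted p = 0.0129). Over the start site the values were 2134 and 1700 bp against 757 and 1299 bp. A pair of regions inside the neighbouring gene PEPD, a peptidase gene, were gained, at 16.4 kb (905 and 474 bp) and 20.8 kb (1001 and 806 bp). Both had H3K4me2 in all 4 libraries: the H3K4me2 region at 20.6 kb covered 1307 and 1406 bp after Corin compared with 1282 and 1007 bp in DMSO cells. Over the CEBPG window H3K4me2 covered 9537 and 9468 bp against 7817 and 7659 bp (log2 difference 0.28, SE 0.15, limma adjusted p = 0.18), and over the start site 1874 and 1859 bp against 1670 and 2032 bp, with overlapping groups. H3K4me3 covered 3389 and 2717 bp against 3347 and 3092 bp and overlapped.

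The middle 300 bases of the gained CEBPG region at 20.8 kb (hg38 chr19:33394372-33394671, plus strand) are shown because it was the widest H3K27ac region gained in the 6 windows. The capitals mark the RUNX letters TGTGGT and GTGATT, the reverse complement of the GFI1 letters. Of H3K27ac regions away from a start site, 23.1% hold the RUNX letters and 13.5% the GFI1 letters. The CEBPG region had no match to the PU.1 (31.3% of those regions) or C/EBP (15.7%) letters.
CEBPG downstream H3K27ac region: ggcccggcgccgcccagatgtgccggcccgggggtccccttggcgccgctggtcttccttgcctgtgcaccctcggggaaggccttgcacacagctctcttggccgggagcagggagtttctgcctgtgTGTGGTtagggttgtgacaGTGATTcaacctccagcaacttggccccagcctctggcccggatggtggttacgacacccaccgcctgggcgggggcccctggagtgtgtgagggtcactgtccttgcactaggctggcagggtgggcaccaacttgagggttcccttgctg

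CEBPB (chr20:50190830-50192668, plus strand), a cytokine-induced member, was the member whose marks parted in opposite directions. H3K27ac covered 5143 and 3611 bp after Corin against 2175 and 1993 bp in DMSO cells, a log2 difference of 0.90 (SE 0.33, limma adjusted p = 0.0397). Among 13 alternatives this call was kept in 1, with 100 kb either side: the replicate block (adjusted p = 0.0629), a pseudocount of 100 bp (0.0548), the lack of a filter (0.057) and each of the 4 libraries left out (0.0665 to 0.343) all ended it, by limma. No H3K27ac peak lay over the gene's start itself. In the region just downstream, from 8 to 1349 bp, the groups overlapped, with 1342 and 894 bp after Corin against 1220 and 1011 bp after DMSO. The widest region away from a start site was centred at -43.4 kb, inside PEDS1, and there 2921 and 2240 bp stood against 955 and 982 bp. With 10 kb either side of the gene the log2 difference was 0.14 (limma adjusted p = 0.778). H3K4me3 over the CEBPB start site covered 2443 and 2377 bp after Corin compared with 2711 and 2677 bp in DMSO cells. Both Corin libraries were below, as at 9.24% of genes with an H3K4me3 region over a start site, and the difference was -284 bp. The main H3K4me3 peak began between -309 and -287 bp in all 4 libraries and ended at 1809 and 1531 bp after Corin against 2423 and 2386 bp after DMSO. In the Corin libraries more coverage followed after a gap, so that the region reached 2496 bp and the ends of the main peaks show a break in it, not its far edge. Over the window the H3K4me3 log2 difference was -0.12 (SE 0.08, limma adjusted p = 0.727). H3K4me2 covered 7932 and 7887 bp after Corin against 5585 and 7216 bp in DMSO cells (log2 difference 0.30, SE 0.16, limma adjusted p = 0.196), and over the start site 1592 and 1864 bp against 746 and 1825 bp, with overlapping groups.

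CEBPD, the other inflammation-induced member, showed the smallest H3K27ac difference of the 6 on the log2 scale. H3K27ac covered 3548 and 3501 bp after Corin compared with 2269 and 2776 bp in DMSO cells (log2 difference 0.42, SE 0.33, limma adjusted p = 0.29), most of it over the start site, at 2913 and 2848 bp against 2005 and 2285 bp. Its single H3K4me2 region covered 4320 and 4656 bp after Corin against 2929 and 4143 bp in DMSO cells (log2 difference 0.32, SE 0.19, limma adjusted p = 0.256). Its single H3K4me3 region covered 3839 and 3991 bp against 3943 and 3924 bp, with a log2 difference of -0.01 (SE 0.08). Unlike CEBPA and SPI1, the CEBPD window held no region of H3K4me2 or H3K4me3 other than the one over the gene.

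Counted as regions, the 6 windows held 54 H3K27ac regions, of which 8 (14.8%) were gained, beside 11.5% of all 41587 H3K27ac regions, and 0 lost, beside 0.18%. The 8 became 3 at matched list length, 4 at a score of at least 100, 22 without Corin replicate 1 and 15 without Corin replicate 2. Of 35 H3K4me2 regions 0 were gained, beside 9.64% of all, and 0 lost, beside 0.158%, and 28 were present in all 4 libraries. Of 12 H3K4me3 regions 1 (8.33%) was gained, beside 1.49%, and 0 lost, beside 0.289%, and the 1 became 0 at matched list length and at a score of at least 100, and 2 when Corin replicate 1 or Corin replicate 2 was left out. At CEBPE, where H3K4me2 rose, 3 of its 4 H3K4me2 regions were present in all 4 libraries and differed in length. With 2 libraries per group, presence calls were not tested.

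The 3 marks together allow a test over libraries, an exact two-sided permutation of the treatment within each mark with 216 arrangements, which takes libraries of different marks as independent. SPI1 (mean log2 difference 0.33) and CEBPA (0.41) had each Corin library above each DMSO library in every mark and reached 0.00926, the smallest p these arrangements can give, or 0.0449 after Benjamini-Hochberg adjustment over 11974 windows. Of those windows 20.6% passed, and the median difference was 0.35. With same-numbered libraries paired and their signs flipped, both genes reached 0.0312, the smallest p that 64 sign flips can give, which adjusts to 0.101, so that test could call no window. With lists of matched length both calls were lost, at 0.28 for SPI1 and 0.36 for CEBPA (adjusted exact p = 0.102). After centring the differences were -0.05 for SPI1 and 0.04 for CEBPA, and neither was called. CEBPD (0.24) and CEBPG (0.43) had an adjusted exact p of 0.0795 and CEBPB (0.36) of 0.162.

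The surrounding network was read from 3 lists, chosen with earlier results of these data known, so their counts are a description. Among relatives (SPIB, SPIC, DDIT3 and CEBPZ), 3 windows were tested for H3K27ac and SPIB, the B-cell and dendritic-cell relative of PU.1, rose, 1 of 3 beside 38.4% of all windows (9291 and 6801 bp against 2464 and 2153 bp; log2 difference 1.59, SE 0.31, limma adjusted p = 0.002). This call was lost without Corin replicate 1, without Corin replicate 2, at matched list length, at a score of at least 100, after centring, with 10 kb either side and in the gene body alone. For H3K4me2 0 of 3 were called, and the largest differences were 0.30 at SPIB and 0.15 at CEBPZ. Among 10 regulators and partners, 3 of 6 tested rose in H3K27ac, beside 38.4% of all windows: RUNX1, an activator of SPI1 (log2 difference 1.17), IRF8, the monocyte partner of PU.1 (1.45), and GFI1, the CoREST recruiter (0.68). Their list median was 0.73 beside 0.77 for all windows. For H3K4me2 4 of 10 rose, beside 18.4% of all windows: RUNX1 (0.52), MYB (0.52), IRF8 (0.51) and TRIB1 (0.42), the last encoding a pseudokinase that promotes C/EBPα degradation. The TRIB1 call lay at the threshold, with a limma adjusted p that rounds to 0.05. None of either list fell. After centring, 2 of the 6 regulators had a positive H3K27ac difference. With the replicate block 2 regulators were called for H3K27ac and 3 for H3K4me2. The 3 H3K27ac calls became 0 after centring, at matched list length, at a score of at least 100, in the gene body alone, without Corin replicate 1 and without Corin replicate 2. The 4 H3K4me2 calls became 0 after centring, at matched list length, with 10 kb either side, in the gene body alone and without Corin replicate 1.

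Of 16 genes known as PU.1 or C/EBP targets, 11 were tested for H3K27ac and 10 rose. This list too was chosen with earlier results known, and the DMSO minimum used below was added after seeing the data. Its shares, here and for H3K4me2, are therefore a description and not a test of targets. ITGAX passed the filter on low values through the Corin libraries alone (1697 and 2938 bp against 0 and 296 bp), so its call is not counted here: of the 10 windows with a DMSO mean of at least 500 bp 9 rose, with a median of 1.36, beside 37.7% of the 11248 windows with such a DMSO mean and their median of 0.73. The largest rise was at ITGAM, which encodes the CD11b integrin chain, with 5313 and 4978 bp after Corin against 873 and 296 bp after DMSO (log2 difference 2.43, SE 0.38, limma adjusted p = 0.000685). Its DMSO libraries lay on either side of the 500 bp minimum, and its window overlaps that of ITGAX. CSF1R, the receptor of macrophage colony-stimulating factor, had 13433 and 13094 bp against 3794 and 3991 bp (1.65). The others called, ITGAX aside, were CD14 (1.76), IL6R (1.72), LYZ (1.61), CAMP (1.11), CSF3R (1.06), MPO (1.02) and BTK (0.87). ELANE, which encodes neutrophil elastase, was the 1 tested and not called (0.53, limma adjusted p = 0.0796) and was named after its value was seen. The 9 calls became 0 without Corin replicate 1, 0 without Corin replicate 2, 5 without DMSO replicate 1, 0 at a score of at least 100, 0 in the gene body alone and 3 with 10 kb either side. They also became 0 at matched list length and after centring, where the median of the 10 windows was 0.90 and 0.56. With the replicate block 8 of the 10 were called.

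For H3K4me2, 10 of 14 tested target windows were called. S100A8 and S100A9, the calprotectin genes, count as 2 of these but share the same peaks and passed the filter through the Corin libraries alone: 3710 and 2974 bp after Corin against 0 and 259 bp after DMSO (log2 difference 2.63 on the log2(bp + 500) scale, limma adjusted p = 7.01e-09). Without them 8 of 12 rose, with a median of 0.67, beside 17.8% of the 16178 windows with a DMSO mean of at least 500 bp and their median of 0.22. LTF (1.24), CSF1R (1.17), ITGAM (1.02), ITGAX (1.02), CAMP (0.97), LYZ (0.81), CD14 (0.53) and IL6R (0.46) were the 8. ITGAM and ITGAX are neighbouring genes with overlapping windows, so their calls are not independent. Of these 12 windows, 3 were called at matched list length, 4 at a score of at least 100, 5 after centring and 5 without DMSO replicate 1. With the replicate block 7 of the 12 were called. With 10 kb either side 3 of 11 were called, and in the gene body alone 0 of 9, with a median of 0.21. For H3K4me3 0 of 9 target windows, 0 of 9 regulators and 0 of 3 relatives were called. The target with the largest H3K4me3 difference was LYZ, the lysozyme gene, with 3535 and 3116 bp after Corin against 1651 and 1694 bp in DMSO cells (log2 difference 0.81, SE 0.10, limma adjusted p = 0.141), followed by MPO (0.18). The largest among regulators were JUN (0.73; 943 and 761 bp against 0 and 824 bp, overlapping groups, a window that passed the filter through the Corin libraries alone) and KLF4 (0.64), and among relatives SPIB (0.16) and CEBPZ (0.08).

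The windows whose coverage profile over the 12 libraries was most like each factor's, after centring each mark on its mean, were SAT2 (Pearson r 0.976) and CCNDBP1 (0.971) for SPI1, IL12RB1 (0.996) and BIN2 (0.991) for CEBPA, PRR5L (0.989) and MATN3 (0.988) for CEBPB, RNF25 and TYMS (both 0.975) for CEBPD, and CALR3 (0.992) and CHRAC1 (0.99) for CEBPG. These are the highest of 11974 windows over the same 12 libraries and share their number of peaks, so they are a description. CEBPE, without an H3K4me3 peak, was left out of this comparison.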

How the data were processed

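Peak lists of 12 of the 19 libraries were used, and 7 (4 of all-trans retinoic acid with Corin, 1 of LSD1 and 2 of IgG) were not analysed here. The authors deposited 1 list per library with a whole-number score of at least 50 whose definition is not given in the sources used here. The score only ranked or filtered peaks within a list. The submitters' processing notes name Trim Galore, Bowtie2, Picard, MACS2 and GRCh38/hg38. Per the labels, libraries were read as 150 bp paired ends. In hg38 chromosome lengths, 0 of the 292523 peaks ran beyond an end.

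Covered bp were summed per window from GENCODE release 44. Each mark was fitted with limma 3.58.1 (R 4.3.3; trended eBayes) on log2(bp + 500) over protein-coding windows with a mean of at least 500 bp, and fold changes of low windows are understated on that scale. All 6 members passed this filter for H3K27ac and H3K4me2 and 5 for H3K4me3, where CEBPE had no peak. Regions were unions of a mark's 4 lists. A region belonged to a start site when within 1 kb of it. The ranking of regions over start sites and the alternatives for the pathway lists, the DMSO minimum among them, were added after seeing the data. Promoter sequences were those of RefSeq (hg38), where 4 of 6 members matched, and region sequences were read from hg38. The fit was tested on simulated data.

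The named genes were the members and the genes of each list that limma called, or else the 2 with the largest change. Also named were the 2 windows most like each member except CEBPE. Named regions were those gained or lost, that over the start site and the widest away from one. Further regions (SPI1, CEBPA, CEBPE, CEBPG) were named after their values were seen. The members and lists were chosen with earlier results of these data known. Alternatives were matched list length, a score of at least 100, centring on library medians, a pseudocount of 100 bp, no filter, flanks of 0, 10 and 100 kb, presence over 50% of a region, a replicate block and each library left out. Deviations of same-numbered libraries from their group means correlated at 0.295 (H3K27ac), 0.295 (H3K4me2) and 0.274 (H3K4me3), and the numbers were therefore read as pairs in the replicate block. The fits reported first carry no block. What such a number stands for, or whether replicates were separate cultures, is not in the labels, so p-values measure the spread between these libraries, which may be technical.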

Additional observations from a re-analysis of the deposited data

Results flagged for a closer look

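In the CEBPB window the marks parted in opposite directions between the treatments. H3K4me3 was lower in both Corin libraries than in both DMSO libraries, with a mean difference of -363 bp, while H3K27ac (2293 bp) and H3K4me2 (1509 bp) were higher in both Corin libraries. The difference between the marks was not tested.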

How the results depend on the processing

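Protein-coding windows with higher H3K27ac, 4908 in number, became 0 with matched list length, 0 with a score of at least 100, 2 after centring, 1511 with 10 kb either side, 0 in the gene body and 7640 with 100 kb, and 0 to 5458 when single libraries were left out. Of the 4 members called, 0, 0, 0, 2 and 0 were called under the first 5 of these, and 0 to 3 when single libraries were left out. For H3K4me2 the 3033 higher windows became 252, 1213, 680, 594 and 1 under the same 5 settings, 1890 with the replicate block and 689 to 3603 with single libraries left out. Its 4 lower windows became 7, 0, 39, 0 and 0, 2 with a pseudocount of 100 bp, with any coverage in place of the filter and with the block, and 0 to 7 with libraries left out. The 1 member called for H3K4me2 became 0 in the gene body, 2 with 100 kb and 1 to 2 with libraries left out. The 8 gained H3K27ac regions became 3 at matched list length, 4 at the stricter score and 8 to 22 with libraries left out (0 to 1 lost), the 0 gained H3K4me2 regions became 1 when presence needed 50% of the region and 0 to 3 with libraries left out, and the 1 gained H3K4me3 region became 0 at matched list length, 0 at the stricter score and 1 to 2 with libraries left out (0 to 1 lost). Fewer libraries make presence in both of a group easier by construction; the cause of the other changes was not tested.

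Log2 differences changed sign after centring for H3K27ac at SPI1 (-0.30), CEBPA (-0.02) and CEBPD (-0.38), for H3K4me2 at SPI1 (-0.19), and over the 3 marks at SPI1 (-0.05), CEBPB (-0.02) and CEBPD (-0.13). They also did so in the gene body for H3K27ac at CEBPB (-0.01) and H3K4me2 at CEBPA (-0.16), and for H3K4me3 at CEBPG with 100 kb (0.03) and without Corin replicate 2 (0.07; -0.21 without Corin replicate 1), and at CEBPD without Corin replicate 1 (0.02; -0.03 without Corin replicate 2). Of the members' other values, 180 kept sign and side of the threshold, 4 were at 0.00 and not called, 36 kept sign but lost the call and 3 gained one. The replicate block ended the H3K27ac call of CEBPB and no other member's limma call. Over the 3 marks the paired test could call no window, since its smallest p of 0.0312, which SPI1 and CEBPA reached, adjusts to 0.101. With 1 library left in a group, its spread is taken from the other group. Depth is unknown, so a missing peak does not show that a mark is absent.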
